A study of Bos taurus with 12 samples.

Results

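The constitutive proteasome was followed in the liver of newborn calves as 48 genes, taken from the 30336 gene IDs of the count files. Members were all genes whose bovine RefSeq symbol starts with PSMA, PSMB, PSMC, PSMD, PSME, PSMF or PSMG, with POMP, ADRM1 and SEM1 added and the 5 interferon-inducible genes PSMB8, PSMB9, PSMB10, PSME1 and PSME2 set apart. By the place of their product in the particle, 8 genes were assigned to the alpha rings of the core, 8 to the beta rings, 10 to the base, 9 to the lid, 8 to the assembly factors and 3 to other activators and an inhibitor. The remaining 2, PSMC3IP and PSME3IP1, fit by name alone.

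Liver was collected by puncture biopsy at 4 d of age from 12 Holstein heifer calves, and stranded libraries of polyadenylated RNA were read on 1 lane. The dams of 6 calves (CON) received a control diet with no added methionine before calving, and the dams of the other 6 (MET) received that diet with methionine protected from the rumen by ethyl cellulose for the last 28 d of gestation. Rearing after birth was the same for both groups. One first index sequence was common to the 6 CON libraries and a different one to the 6 MET libraries, and the index therefore cannot be told apart from maternal diet. Libraries held from 8277789 to 10397604 reads assigned to genes. The libraries of CON 1 and CON 4 differed by little more than counting noise, with a chi-square per gene of 1.33, as did those of MET 1 and MET 3 with 1.24, whereas the other 64 pairs of libraries had values of 25.1 to 133. Either pair was therefore treated as 1 sample, named CON 1/4 and MET 1/3, which left 5 samples per diet. Expression is given as CPM, the read count relative to the library size after TMM scaling, and values per sample are in the order CON 1/4, 2, 3, 5 and 6 and MET 1/3, 2, 4, 5 and 6. For members described in every sample, the fit to the 12 libraries is given beside that to the 10 samples.

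The proteasome degrades proteins that carry ubiquitin chains. Its core is a barrel in which outer alpha rings gate access to inner beta rings that hold the peptidase sites, and a cap made of a base and a lid binds the chains, removes them and unfolds the substrate with a ring of ATPases. Hepatocytes use it for turnover of enzymes and for disposal of misfolded secretory proteins, and dedicated chaperones put the core and the base together.

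The tissue label was examined with marker genes. All 10 hepatocyte markers passed the filter on low counts, and their summed expression was 170955, 184759, 137200.0, 167187 and 176649 CPM in CON and 139128, 112121, 137380.0, 145724 and 142061 CPM in MET calves. Of these, 2 had a higher fitted value in MET over the 10 samples and 8 a lower one, and ALB, the plasma albumin gene, was the most abundant at 50837 CPM on average. Of the 11 macrophage or Kupffer cell markers, all had a higher fitted value in MET over the 10 samples. Their sum was 1448, 1766, 1904, 1695 and 1765 CPM in CON and 1983, 2276, 1980.0, 1719.9 and 2185 CPM in MET calves, with MARCO the most abundant at 430.0 CPM. MARCO had a log2 fold change of 0.017 over the 10 samples and −0.048 after removal of a trend on gene length. The medians of the macrophage list were 0.32 and 0.25. The 5 proliferation markers all had lower fitted values in MET, with MKI67 the most abundant at 11.5 CPM. They summed to 19.9, 57.2, 79.0, 22.1 and 30.7 CPM in CON and 26.0, 16.1, 9.90, 13.9 and 13.6 CPM in MET calves. Of 10 lymphocyte markers, the B cell genes CD79A, CD79B and MS4A1 were below the filter and the other 7 had higher fitted values in MET, and NKG7 was the most abundant at 11.8 CPM. The lymphocyte sum was 44.0, 29.2, 26.6, 29.3 and 26.6 CPM in CON and 43.6, 38.7, 32.2, 53.9 and 48.4 CPM in MET calves. Of 8 endothelial markers 4 had higher fitted values in MET, with STAB2 the most abundant at 130.3 CPM and a sum of 320.5, 491, 459.9, 403 and 419 CPM in CON and 384, 386, 282, 351 and 449.5 CPM in MET calves. Of 9 stellate or fibroblast markers 1 did, with COL3A1 the most abundant at 339.9 CPM and a sum of 656, 677, 807, 749.7 and 941 CPM in CON and 677, 541, 498, 583 and 798 CPM in MET calves. Of 4 cholangiocyte markers tested none did, with EPCAM the most abundant at 19.3 CPM, SOX9 below the filter and a sum of 52.1, 58.7, 73.8, 87.0 and 91.8 CPM in CON and 73.6, 52.3, 34.6, 39.1 and 75.4 CPM in MET calves. MET 4 had the lowest sum of all 10 samples for the proliferation, endothelial, stellate or fibroblast and cholangiocyte lists. Of 2 erythroid markers tested 0 had higher fitted values in MET, with HBB the most abundant at 261 CPM and the other 6 below the filter. The erythroid sum was 7.64, 962, 378, 123 and 363 CPM in CON and 460.5, 60.8, 166, 57.1 and 142 CPM in MET calves, and CON 1/4 was the lowest sample and CON 2 the highest. The counts of higher and lower fitted values refer to the 10 samples for every list. Over the 12 libraries TTR, KRT7 and ALAS2 had log2 fold changes above 0, at 0.068, 0.0021 and 0.16. CD3G was below 0 there, at −0.088. No marker of any list was at 0 in all samples. In bulk tissue, fewer cells of a type and less RNA per cell cannot be told apart, and the part of these cell types in the proteasome results was not tested.

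Single markers passed the threshold of edgeR's quasi-likelihood test over the 12 libraries (FDR ≤ 0.10). The macrophage genes C1QB, C1QC, AIF1 and TYROBP were greater in MET, and the hepatocyte gene APOB, the proliferation genes CDK1 and CCNB1 and the fibroblast gene LUM were lower. Of all genes, 2.09% were called higher and 2.32% lower. After removal of a trend on gene length, edgeR's adjusted p was 0.131 for C1QB and C1QC, 0.170 for AIF1 and 0.224 for TYROBP. It was then 0.121 for LUM and 0.374 for APOB, whose log2 fold change went from −0.38 to −0.19. The test over the 12 libraries counted each near-identical pair as 2 calves, and edgeR called none of these 8 genes over the 10 samples, where their adjusted p was 0.173 to 0.214. With 1 library left out, the adjusted p was 0.0669 to 0.124 for C1QC (not called without CON 1 or CON 4), 0.0626 to 0.112 for AIF1 (not called without CON 1 or CON 4) and 0.0795 to 0.118 for CCNB1 (not called without CON 1, CON 3, CON 4, MET 2, MET 4, MET 5 or MET 6). The range was 0.0933 to 0.164 for C1QB (not called without CON 1, CON 2, CON 4, CON 5, CON 6, MET 1, MET 2, MET 3, MET 4 or MET 6), 0.0944 to 0.145 for TYROBP (not called without CON 1, CON 3, CON 4, CON 5, CON 6, MET 1, MET 2, MET 4, MET 5 or MET 6) and 0.0795 to 0.129 for CDK1 (not called without CON 1, CON 2, CON 3, CON 4, MET 1, MET 2, MET 3, MET 4, MET 5 or MET 6). For the other genes it was 0.0964 to 0.139 for APOB (not called without CON 1, CON 2, CON 3, CON 4, CON 5, CON 6, MET 1, MET 2, MET 3, MET 4 or MET 6) and 0.0471 to 0.169 for LUM (not called without CON 1, CON 3, CON 4, CON 5, CON 6, MET 1, MET 2, MET 3, MET 4 or MET 6).

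Over the 10 samples most proteasome genes had a higher fitted value in MET than in CON calves, and edgeR called none of these differences. Of the 48 members, 46 passed the filter on low counts. PSMA8, a testis form of an alpha subunit, and PSMB11, the thymus form of a catalytic subunit, had 0 reads in all 12 libraries, where 3 reads would equal 0.276 to 0.377 CPM. The fitted log2 fold change over the 10 samples was above 0 for 40 of 46 members, compared with 49.6% of the 13212 genes tested. Over the 12 libraries this number was 40, it became 42 with library size scaling (54.5% of all genes), where PSMD1 and PSMC6 turned above 0, and 38 after removal of a trend on gene length (53.2% of all genes), where PSMD1 turned above 0 and PSMB7, SEM1 and PSMG1 below. Their median log2 fold change (MET over CON) was 0.20 over the 12 libraries and 0.20 over the 10 samples, and that of all genes was −0.0031 and −0.0023.

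In the quasi-likelihood test of edgeR, adjusted by Benjamini-Hochberg and run over the 12 libraries, 2 members were higher in MET at FDR ≤ 0.10, or 4.35% of those tested, against 2.09% of all genes. These were PSMB2 and PSMD4. No member was lower at that threshold, against 2.32% of all genes. At unadjusted p ≤ 0.05 there were 16 members higher (34.8%, against 10.2% of all genes) and 1 lower (PSME4, or 2.17%, against 10.4%). Over the same libraries DESeq2 called 10 members higher (21.7%, against 4.79% of all genes) and 1 lower (2.17%, against 5.15%), and voom of limma called 2 higher and 0 lower (4.35%, against 4.21% in either direction). Over the 10 samples edgeR called 0 members and 0 of all genes, while 13 members and 2162 genes had an unadjusted p ≤ 0.05, DESeq2 called 3 members (PSMD4, PSMA5 and PSMB2, or 6.52%) and 624 genes (4.72%), and voom of limma called 0 of both. Of those 13 members, 12 were higher in MET (26.1% of the members, against 7.86% of all genes) and 1 was lower (8.5% of all genes). The 5 MET samples all lay above the 5 CON samples for 5 members, or 10.9%, against 1.94% of all genes, and all lay below for 1 member, against 1.77%. These 6 members without overlap became 1 with library size scaling (2.17%, against 2.57% of all genes) and 2 after removal of the length trend (4.35%, against 3.0%). With the 12 libraries taken singly 4 of the 6 did not overlap, whereas PSMA5 and PSMB4 did, since MET 3 was at 52.5 CPM for PSMA5, below CON 4, 5 and 6, and at 108 CPM for PSMB4, below CON 4.

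These counts depended on single libraries. No member was called without CON 1, 3, 4, 5 or 6 or without MET 1, 2 or 4, with 17 members (37.0%, against 20.5% of all genes) at unadjusted p ≤ 0.05 in the fit to all 12 libraries and 11 (23.9%, against 9.95%) called there by DESeq2. Without CON 2 the count was 3 (PSMB2, PSMD4 and ADRM1, or 6.52%, against 4.27% of all genes). It was 1, or 2.17%, without MET 3 (PSMB2, against 2.5% of all genes), without MET 5 (PSMD4, against 2.57%) and without MET 6 (PSME3IP1, a member by name alone, against 1.62%). The 583 genes called in all became 26 without CON 1, 285 without CON 3, 35 without CON 4, 377 without CON 6, 203 without MET 1, 345 without MET 2, 330 without MET 3, 298 without MET 4, 340 without MET 5 and 214 without MET 6. The 13 members at unadjusted p ≤ 0.05 over the 10 samples became 6 without CON 3 and 8 without MET 4.

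Levels were compared between genes per kb of exon. The median member was at 45.8 CPM per kb, against 5.14 for all genes tested. The medians were 70.6 CPM per kb in the alpha ring, 80.5 in the beta ring, 49.2 in the base, 29.3 in the lid and 26.0 among the assembly factors. Of these 5 classes the core had the highest medians and the assembly factors the lowest, and the ranges of all 5 overlapped. The median of the 3 other activators and inhibitor was 18.0 CPM per kb. Reads that match several places in the genome were not counted, so that a gene with near-identical copies elsewhere can be underestimated, and this was not tested.

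**Figure D1:**
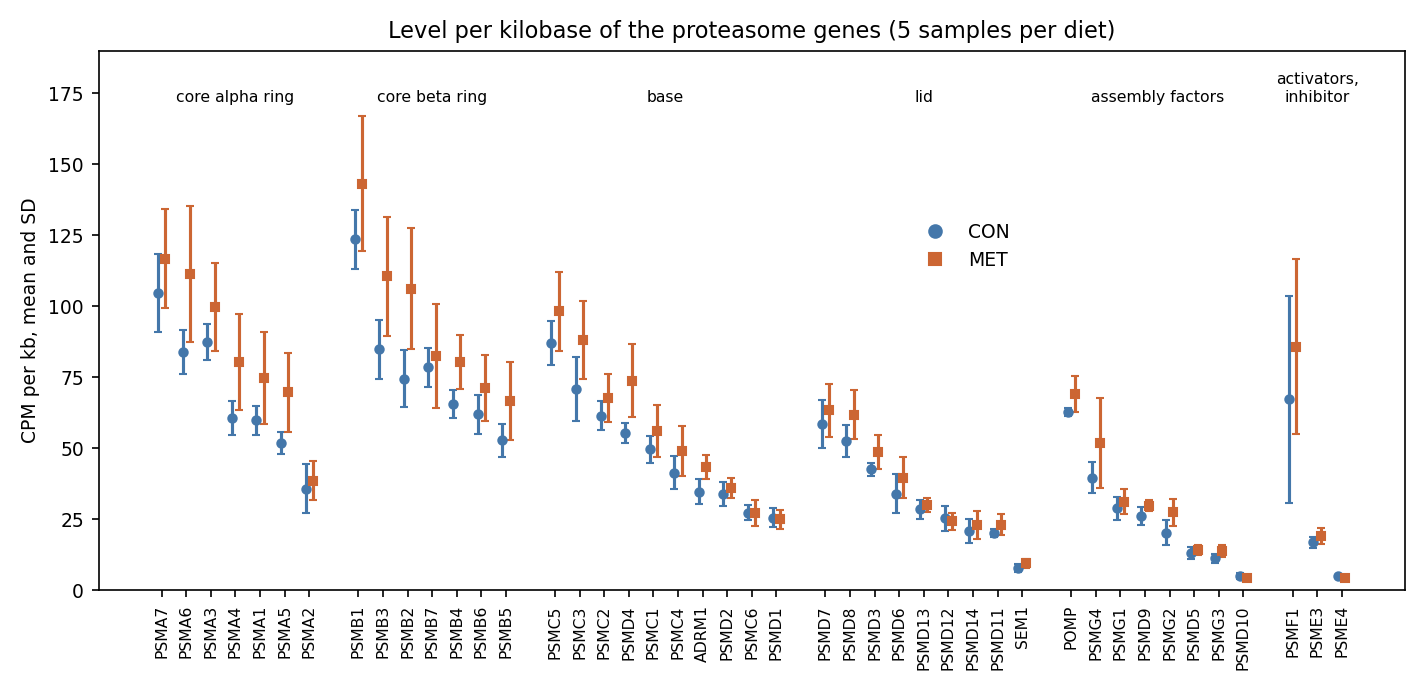
Expression per kb of exon of the proteasome genes in CON (circles) and MET (squares), as mean ± SD of 5 samples per diet in CPM per kb, grouped by subcomplex and ordered by level within each. Of the genes drawn, PSMB1 was the highest, and PSMD10 and PSME4 were the lowest.

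In the alpha rings, which form the gate of the core, all 7 expressed members had a higher fitted value in MET, with a median log2 fold change of 0.32 over the 10 samples. PSMA5 (gene ID 510155, chromosome 3, 34126155 to 34147184) was measured at 49.7, 47.5, 46.3, 53.3 and 55.2 CPM in CON and 56.0, 62.4, 89.9, 59.6 and 70.3 CPM in MET calves. Every MET sample was above every CON sample, and MET 4 was far above the rest. Its log2 fold change was 0.39 (SE 0.12, adjusted p = 0.116) over the 12 libraries and 0.42 (SE 0.14, adjusted p = 0.193) over the 10 samples in edgeR, which called it in neither fit, while DESeq2 called it in both. After removal of the length trend PSMA5 had 0.29 over the 10 samples (unadjusted p = 0.0511 in edgeR). PSMA6 (gene ID 507213, chromosome 21, 45974822 to 45998595) was measured at 83.7, 87.6, 68.7, 86.1 and 80.7 CPM in CON and 95.1, 99.2, 147, 88.6 and 110.3 CPM in MET calves. The diets again did not overlap, although MET 5 exceeded the highest CON sample by little. The log2 fold change of PSMA6 was 0.37 (SE 0.13, adjusted p = 0.127) over the 12 libraries and 0.41 (SE 0.15, adjusted p = 0.223) over the 10 samples in edgeR, and DESeq2 called it over the 12 libraries. With the length trend removed PSMA6 had 0.28 over the 10 samples (unadjusted p = 0.0663 in edgeR).

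The most and the least abundant alpha subunits had smaller fold changes than these. PSMA7 (gene ID 505050, chromosome 13, 55501342 to 55506984), the most abundant alpha subunit at 105 ± 13.7 CPM per kb in CON and 117 ± 17.5 in MET (mean ± SD, n = 5), had 129, 166, 119, 150.1 and 135 CPM in CON and 136, 169.9, 156, 130.5 and 187 CPM in MET calves. CON 2 was among the highest samples and the diets overlapped, with a log2 fold change of 0.16 (SE 0.14, adjusted p = 0.600) over the 10 samples and 0.076 after removal of the length trend. PSMA7 over the 12 libraries had 0.15 (SE 0.12, adjusted p = 0.514), which became 0.077 without MET 6. PSMA2 (gene ID 539141, chromosome 4, 78821820 to 78832468), the least abundant of the expressed alpha subunits at 35.7 ± 8.64 CPM per kb in CON and 38.6 ± 6.78 in MET (mean ± SD, n = 5), had 46.6, 37.7, 49.9, 51.2 and 71.5 CPM in CON and 53.2, 47.7, 71.6, 56.8 and 48.2 CPM in MET calves. CON 6 and MET 4 were about equally high, and the log2 fold change over the 10 samples was 0.11 (SE 0.17, adjusted p = 0.784) and 0.043 after removal of the length trend. PSMA2 over the 12 libraries had 0.12 (SE 0.15, adjusted p = 0.670), which became 0.052 without CON 2, 0.25 without CON 6 and 0.035 without MET 4. Of the other alpha subunits, PSMA4 had a log2 fold change of 0.41, PSMA1 of 0.32 and PSMA3 of 0.19 over the 10 samples. After removal of the length trend these values were 0.29, 0.21 and 0.051. Over the 12 libraries PSMA1 had 0.29 and PSMA3 0.16. With 1 library left out their lowest values were 0.19 and 0.088.

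In the beta rings, all 7 expressed members had a higher fitted value in MET and PSMB7 turned below 0 after removal of the length trend, with a median log2 fold change of 0.29 over the 10 samples. PSMB2 (gene ID 516919, chromosome 3, 110720222 to 110756535), a subunit without a peptidase site, was measured at 71.5, 80.5, 55.7, 75.6 and 66.8 CPM in CON and 85.1, 89.1, 134, 90.1 and 100.2 CPM in MET calves. All MET samples were above all CON samples, with CON 3 the lowest and MET 4 the highest. PSMB2 had the largest fold change of the core and was greater in MET with a log2 fold change of 0.47 (SE 0.13, adjusted p = 0.0858) over the 12 libraries, but was not called by edgeR over the 10 samples, where it was 0.51 (SE 0.15, adjusted p = 0.182) and DESeq2 called it. The call was kept in 2 of the 12 fits that left out a library, and the adjusted p of edgeR became 0.137 without CON 1, 0.141 without CON 3, 0.149 without CON 4, 0.107 without CON 5, 0.124 without CON 6, 0.110 without MET 1, 0.111 without MET 2, 0.120 without MET 4, 0.109 without MET 5 and 0.128 without MET 6.

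PSMB4 (gene ID 506203, chromosome 3, 19412241 to 19414986), another structural subunit, had 108, 108, 89.9, 99.0 and 96.5 CPM in CON and 111, 117, 144, 111 and 131 CPM in MET calves. The highest CON samples, 1/4 and 2, came close to the lowest MET samples without overlap. For PSMB4 the log2 fold change was 0.25 (SE 0.099, adjusted p = 0.178) over the 12 libraries and 0.29 (SE 0.11, adjusted p = 0.251) over the 10 samples in edgeR, and DESeq2 called it over the 12 libraries. PSMB1 (gene ID 514237, chromosome 9, 105655748 to 105673470), the most abundant member of the whole particle per kb, was at 124 ± 10.4 CPM per kb in CON and 143 ± 23.8 in MET (mean ± SD, n = 5). Its expression was 109, 118, 93.4, 110.0 and 106 CPM in CON and 118, 118, 139, 96.8 and 149.6 CPM in MET calves. MET 5 was among the lowest samples and MET 6 the highest, and the log2 fold change over the 10 samples was 0.21 (SE 0.13, adjusted p = 0.452) and 0.059 after removal of the length trend. PSMB1 over the 12 libraries had 0.20 (SE 0.11, adjusted p = 0.345), which became 0.13 without MET 6. PSMB3 had a log2 fold change of 0.38 over the 10 samples (unadjusted p = 0.0227 in edgeR). After removal of the length trend PSMB3 had 0.21 (unadjusted p = 0.104 in edgeR).

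The 3 constitutive peptidase subunits cut after different residues. PSMB5 (gene ID 534640, chromosome 10, 21658161 to 21663680), which carries the chymotrypsin-like site and was the least abundant expressed beta subunit at 52.9 ± 5.77 CPM per kb in CON and 66.8 ± 13.7 in MET (mean ± SD, n = 5), had 66.1, 84.3, 69.0, 76.0 and 66.0 CPM in CON and 79.1, 76.6, 121, 81.8 and 97.6 CPM in MET calves. CON 2 exceeded 3 MET samples, so that the diets overlapped, and MET 4 was the highest. For PSMB5 the log2 fold change was 0.33 (SE 0.13, adjusted p = 0.175) over the 12 libraries and 0.34 (SE 0.15, adjusted p = 0.285) over the 10 samples. With the length trend removed PSMB5 had 0.26 over the 10 samples (unadjusted p = 0.0804 in edgeR). PSMB6 (gene ID 510069, chromosome 19, 27198592 to 27200805), which carries the caspase-like site, had 43.3, 55.3, 46.5, 55.6 and 47.9 CPM in CON and 54.5, 51.2, 66.2, 46.4 and 67.7 CPM in MET calves. Only MET 4 and MET 6 were above all CON samples, and the log2 fold change over the 10 samples was 0.20 (SE 0.13, adjusted p = 0.469) and 0.039 after removal of the length trend. PSMB6 over the 12 libraries had 0.22 (SE 0.11, adjusted p = 0.292). PSMB7 (gene ID 511207, chromosome 11, 95401672 to 95458914), which carries the trypsin-like site, had 67.8, 81.1, 81.3, 75.8 and 68.2 CPM in CON and 56.4, 81.0, 87.3, 67.5 and 101 CPM in MET calves. The lowest sample, MET 1/3, and the highest, MET 6, were both of the MET diet. The log2 fold change of PSMB7 was 0.025 (SE 0.14, adjusted p = 0.947) over the 12 libraries and 0.071 (SE 0.15, adjusted p = 0.856) over the 10 samples, and −0.073 once the trend on gene length was removed. Over the 12 libraries PSMB7 ranged from −0.083 without MET 6 and −0.023 without MET 4 to 0.098 without MET 3. Whether the 3 subunits differed in their response to diet was not tested.

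**Figure D2:**
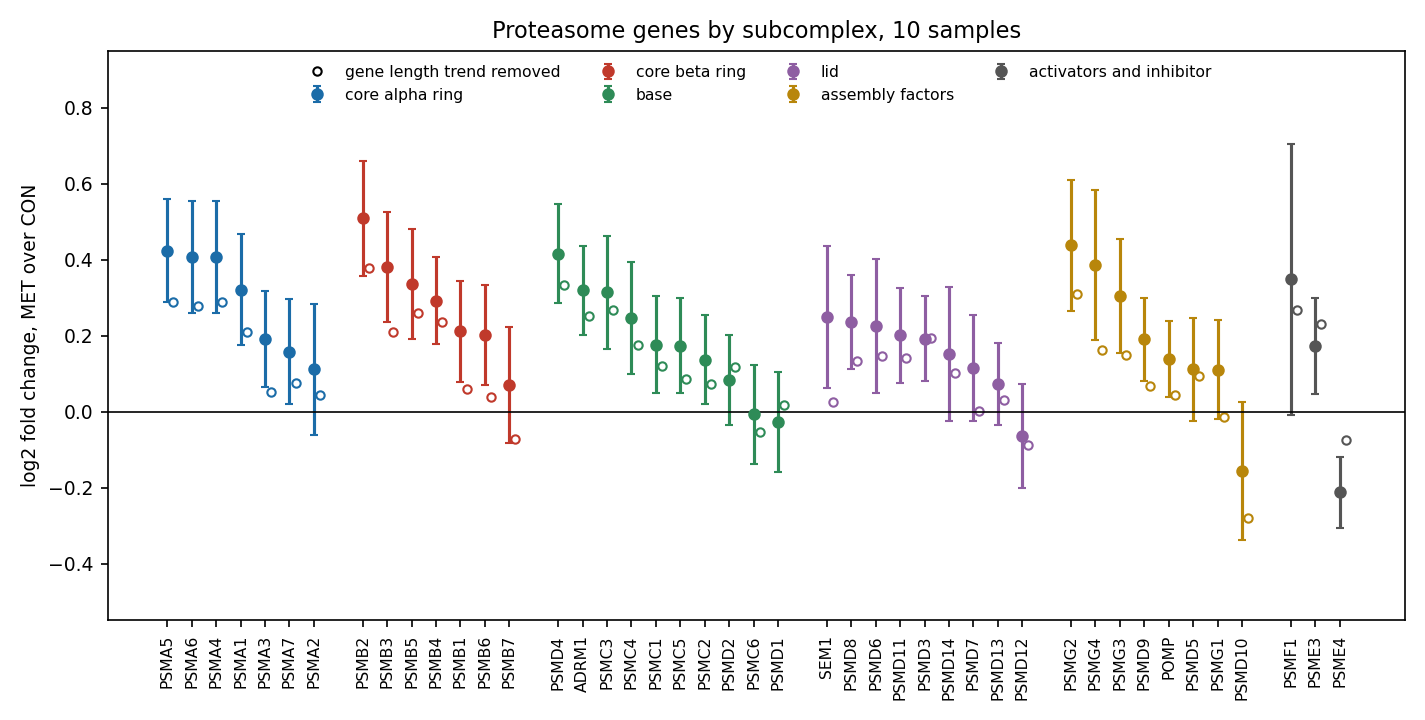
Log2 fold change of expression (MET over CON) of each tested member of a subcomplex over the 10 samples, with bars of 1 SE on each side, and open circles for the value after removal of the trend on gene length. Most points lay above 0, PSMB2 was the highest and PSME4 the lowest of the filled points.

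The base joins 6 ATPases to scaffold subunits and ubiquitin receptors, and 8 of its 10 members had a higher fitted value in MET (all 10 with library size scaling), with a median log2 fold change of 0.17 over the 10 samples. PSMD4 (gene ID 282016, chromosome 3, 19598421 to 19607568), a ubiquitin receptor, was measured at 71.8, 81.6, 69.7, 78.1 and 74.1 CPM in CON and 87.8, 94.5, 112, 82.2 and 124 CPM in MET calves. All MET samples were above all CON samples, with MET 6 and MET 4 the highest and MET 5 just above CON 2. PSMD4 was greater in MET with a log2 fold change of 0.40 (SE 0.11, adjusted p = 0.0869) over the 12 libraries, and over the 10 samples it was 0.42 (SE 0.13, adjusted p = 0.187), which edgeR did not call and DESeq2 did. The call was kept in 2 of the 12 fits that left out a library, and the adjusted p of edgeR became 0.156 without CON 1, 0.147 without CON 3, 0.155 without CON 4, 0.113 without CON 5, 0.123 without CON 6, 0.113 without MET 1, 0.121 without MET 2, 0.103 without MET 3, 0.138 without MET 4 and 0.138 without MET 6.

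The other ubiquitin receptor of the base, ADRM1, had a log2 fold change of 0.32 over the 10 samples with an unadjusted p of 0.0181. PSMC5 (gene ID 282015, chromosome 19, 48728282 to 48732871), the most abundant ATPase at 87.1 ± 7.78 CPM per kb in CON and 98.2 ± 13.8 in MET (mean ± SD, n = 5), had 98.9, 123, 111, 124 and 116 CPM in CON and 114, 132, 134, 110.4 and 155 CPM in MET calves. MET 1/3 and MET 5 were within the CON range, and the log2 fold change over the 10 samples was 0.17 (SE 0.13, adjusted p = 0.516) and 0.086 after removal of the length trend. PSMC5 over the 12 libraries had 0.18 (SE 0.11, adjusted p = 0.397), which became 0.11 without MET 6. PSMD1 (gene ID 511803, chromosome 2, 119672799 to 119756983), a large scaffold subunit and the least abundant of the base at 25.6 ± 3.36 CPM per kb in CON and 25.1 ± 3.33 in MET (mean ± SD, n = 5), had 65.4, 92.3, 89.6, 78.6 and 86.2 CPM in CON and 69.5, 79.3, 91.6, 71.6 and 92.2 CPM in MET calves. CON 2 and MET 6 were about equal, and the log2 fold change over the 10 samples was −0.028 (SE 0.13, adjusted p = 0.938). PSMD1 over the 12 libraries had −0.011 (SE 0.12, adjusted p = 0.972), which became −0.061 without CON 1, 0.035 without CON 2, 0.025 without CON 3, −0.062 without CON 4, 0.013 without CON 6, 0.016 without MET 1, 0.029 without MET 3, −0.058 without MET 4, 0.015 without MET 5 and −0.064 without MET 6. Its sign there also turned with library size scaling and with removal of the length trend. Among the other ATPases the log2 fold change over the 10 samples ranged from −0.0067 for PSMC6 to 0.31 for PSMC3, and PSMD2 had 0.083. Over the 12 libraries PSMC6 had −0.0085 and PSMD2 0.12. With each library left out PSMC6 ranged from −0.092 to 0.037 and PSMD2 from 0.074 to 0.18.

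In the lid, which removes ubiquitin chains, no member was called, had an unadjusted p ≤ 0.05 over the 10 samples or was separated by diet, and PSMD8 was at unadjusted p ≤ 0.05 over the 12 libraries. The log2 fold change was above 0 for 8 of 9 members (SEM1 turned below 0 over the 12 libraries after removal of the length trend) and ranged from −0.065 for PSMD12 to 0.25 for SEM1 over the 10 samples, with a median of 0.19. PSMD12 over the 12 libraries had −0.061, with −0.11 to 0.032 when each library was left out, so that its sign turned. PSMD7 (gene ID 512456, chromosome 18, 37108017 to 37115996), the partner of the deubiquitinase PSMD14 and the most abundant lid gene at 58.6 ± 8.56 CPM per kb in CON and 63.5 ± 9.31 in MET (mean ± SD, n = 5), had 49.4, 69.0, 66.2, 74.4 and 69.3 CPM in CON and 59.7, 66.4, 87.5, 68.3 and 73.6 CPM in MET calves. CON 1/4 was the lowest and MET 4 the highest, with the others intermixed, and the log2 fold change over the 10 samples was 0.11 (SE 0.14, adjusted p = 0.720) and 0.0021 after removal of the length trend. PSMD7 over the 12 libraries had 0.14 (SE 0.13, adjusted p = 0.597), which became 0.076 without CON 1, 0.074 without CON 4 and 0.058 without MET 4. SEM1 (gene ID 767981, chromosome 4, 13938835 to 13963931), a small acidic subunit, was the least abundant at 8.04 ± 1.37 CPM per kb in CON and 9.63 ± 1.55 in MET (mean ± SD, n = 5). It was measured at 4.47, 4.27, 3.43, 3.65 and 2.91 CPM in CON and 3.85, 4.00, 5.30, 4.03 and 5.26 CPM in MET calves, from 28 to 51 reads per library. The diets overlapped, with MET 4 and MET 6 the highest, and the log2 fold change over the 10 samples was 0.25 (SE 0.19, adjusted p = 0.538) and 0.026 after removal of the length trend. SEM1 over the 12 libraries had 0.18 (SE 0.17, adjusted p = 0.577), which became 0.11 without CON 6, 0.12 without MET 4 and 0.12 without MET 6.

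Assembly factors are chaperones that leave the finished particle, and 7 of 8 had a higher fitted value in MET (6 after removal of the length trend), with a median log2 fold change of 0.16 over the 10 samples. POMP (gene ID 510314, chromosome 12, 31492828 to 31503972), which guides maturation of the beta rings, was the most abundant at 62.8 ± 1.54 CPM per kb in CON and 69.2 ± 6.41 in MET (mean ± SD, n = 5). Its expression was 77.2, 76.8, 78.2, 81.4 and 79.9 CPM in CON and 79.3, 91.1, 93.0, 76.8 and 93.4 CPM in MET calves. The CON samples lay within a narrow range, MET 1/3 and MET 5 lay in it or at its edge, and the other 3 MET samples lay above it. POMP had a log2 fold change over the 10 samples of 0.14 (SE 0.10, adjusted p = 0.514) and 0.042 after removal of the length trend. POMP over the 12 libraries had 0.12 (SE 0.085, adjusted p = 0.437). PSMD10 (gene ID 535414, chromosome X, 60966166 to 60973538), a chaperone of the base also known as gankyrin, was the least abundant at 5.10 ± 0.905 CPM per kb in CON and 4.53 ± 0.603 in MET (mean ± SD, n = 5). It had 3.70, 5.28, 6.18, 5.63 and 5.50 CPM in CON and 5.39, 4.59, 3.68, 4.81 and 4.84 CPM in MET calves, and the lowest values were in CON 1/4 and MET 4. Its log2 fold change over the 10 samples was −0.16 (SE 0.18, adjusted p = 0.703) and −0.28 after removal of the length trend. PSMD10 over the 12 libraries had −0.060 (SE 0.17, adjusted p = 0.880), which became −0.16 without CON 1, 0.0090 without CON 3, −0.11 without CON 4, −0.023 without CON 5, −0.030 without CON 6, −0.11 without MET 1 and 0.0030 without MET 4. The alpha ring chaperones ranged over the 10 samples from 0.11 for PSMG1 to 0.44 for PSMG2, which had an unadjusted p of 0.0256 in edgeR. After removal of the length trend PSMG1 had −0.015 and PSMG2 0.31, with an unadjusted p of 0.0735 for PSMG2 in edgeR. PSMG1 over the 12 libraries had 0.10, with 0.026 to 0.16 when each library was left out.

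Among the alternative activators and the inhibitor the genes went different ways. PSME4 (gene ID 528142, chromosome 11, 36424166 to 36524445), a large cap protein of the core that acts without ubiquitin, had 37.0, 34.7, 38.2, 37.8 and 35.9 CPM in CON and 27.7, 31.9, 33.8, 31.3 and 33.9 CPM in MET calves. Every MET sample was below every CON sample, the only such member, and the spread within a diet was small. Its mean level was 36.7 ± 1.44 CPM in CON and 31.7 ± 2.54 CPM in MET (mean ± SD, n = 5). For PSME4 the log2 fold change was −0.24 (SE 0.082, adjusted p = 0.128) over the 12 libraries and −0.21 (SE 0.094, adjusted p = 0.292) over the 10 samples in edgeR, which called it in neither fit, while DESeq2 called it over the 12 libraries. With an exon length of 7067 bases it was the longest member, and its log2 fold change was −0.075 over the 10 samples after removal of the length trend. PSME3, a nuclear cap protein, had a log2 fold change of 0.17 over the 10 samples.

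PSMF1 (gene ID 617807, chromosome 13, 60505462 to 60544959), an inhibitor of the core in vitro and the most abundant of these 3 genes at 67.4 ± 36.5 CPM per kb in CON and 85.9 ± 30.8 in MET (mean ± SD, n = 5), varied most of all 46 members. It had 129, 43.5, 54.7, 64.3 and 149.7 CPM in CON and 167, 75.7, 124, 127 and 69.2 CPM in MET calves. In both diets the highest calves were far above the lowest and the diets overlapped, and the near-identical libraries had like values, at 133 and 125 CPM in CON 1 and 4 and 165 and 169 CPM in MET 1 and 3. Its SD of log2 CPM within diets was 0.673, above that of 90.2% of all genes tested, while the median member had 0.206 and the median gene 0.295. The log2 fold change of PSMF1 was 0.35 (SE 0.36, adjusted p = 0.663) over the 10 samples. PSMF1 over the 12 libraries had 0.36 (SE 0.32, adjusted p = 0.563), which became 0.21 without CON 2. PSMC3IP, a recombination factor, and PSME3IP1, which binds the product of PSME3, are not proteasome subunits and had log2 fold changes of −0.20 and 0.38 over the 10 samples. PSMC3IP over the 12 libraries had −0.19, with −0.31 to −0.087 when each library was left out.

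**Figure D3:**
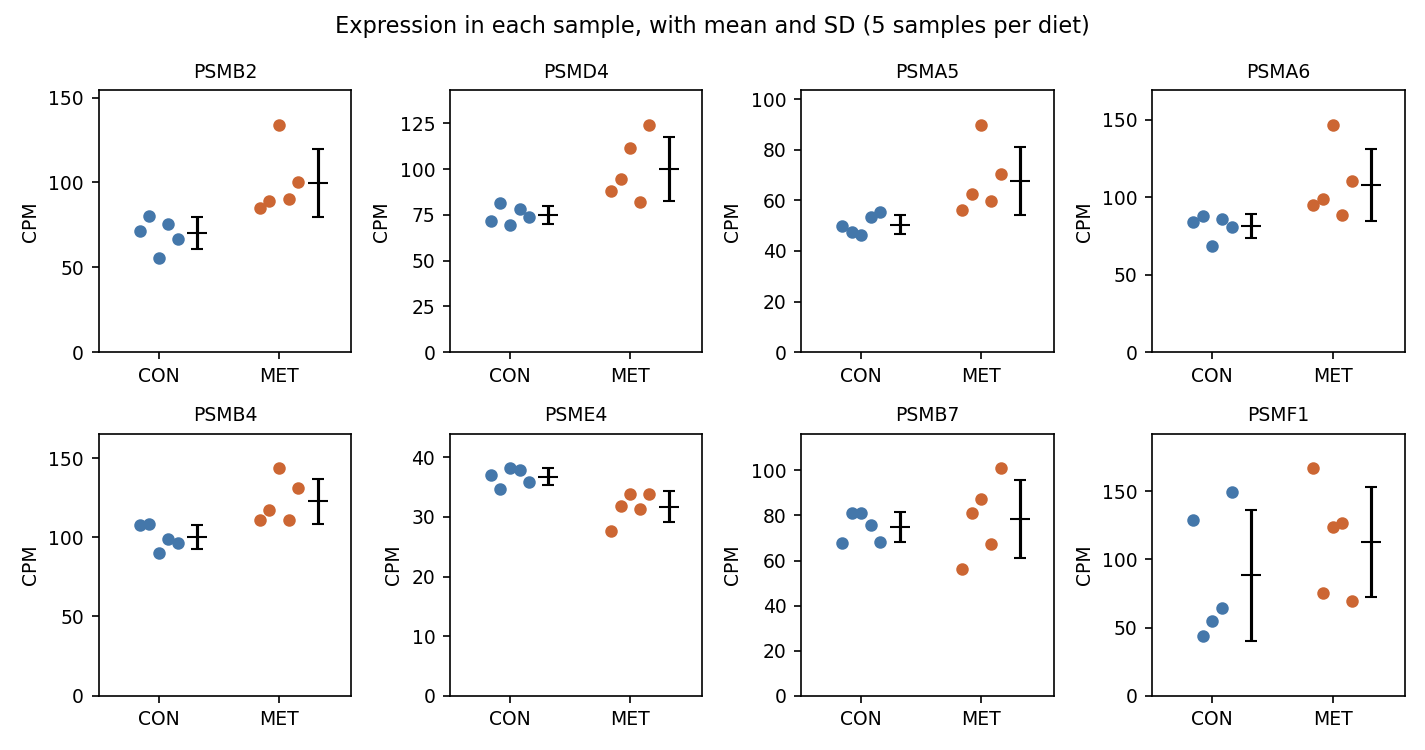
Expression in CPM of 8 members in each of the 5 CON and 5 MET samples (points), with mean ± SD beside them. PSMB2, PSMD4, PSMA5, PSMA6 and PSMB4 had all MET samples above all CON samples and PSME4 all below, whereas PSMB7 and PSMF1 overlapped.

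The mean of each subcomplex was also taken in each calf. The mean log2 difference of the alpha ring genes from their 10-sample mean was −0.21, −0.14, −0.24, −0.037 and −0.065 in CON and −0.062, 0.11, 0.43, −0.051 and 0.28 in MET calves. For the beta ring it was −0.18, 0.037, −0.27, −0.066 and −0.20 in CON and −0.065, 0.040, 0.42, −0.057 and 0.35 in MET calves. In both rings MET 4 and MET 6 were high and MET 1/3 and MET 5 lay among or near the CON samples. For the base it was −0.29, 0.056, −0.15, −0.025 and −0.045 in CON and −0.051, 0.069, 0.29, −0.063 and 0.21 in MET calves. For the lid it was −0.30, 0.039, −0.082, −0.0015 and −0.041 in CON and −0.093, −0.0091, 0.31, 0.050 and 0.13 in MET calves. CON 1/4 was the lowest sample in the base and the lid, and CON 3 the lowest in the core. For the assembly factors it was −0.30, −0.0061, −0.20, 0.031 and 0.011 in CON and −0.011, 0.13, 0.045, 0.037 and 0.26 in MET calves, and here MET 4 was below MET 6 and MET 2. After removal of the length trend CON 2 was the lowest in the alpha ring, at −0.18, and the difference between the diet means went from 0.28 to 0.17 in that ring, from 0.27 to 0.15 in the beta ring, from 0.18 to 0.13 in the base, from 0.15 to 0.078 in the lid and from 0.19 to 0.064 in the assembly factors. Of the 44 tested members of a subcomplex, 23 had their highest value in MET 4 and 12 in MET 6, while 16 had their lowest in CON 1/4 and 12 in CON 3. MET 4 was also the sample with the lowest sums of proliferation, endothelial, stellate or fibroblast and cholangiocyte markers given above, and the part of these cells in its proteasome values was not tested.

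**Figure D4:**
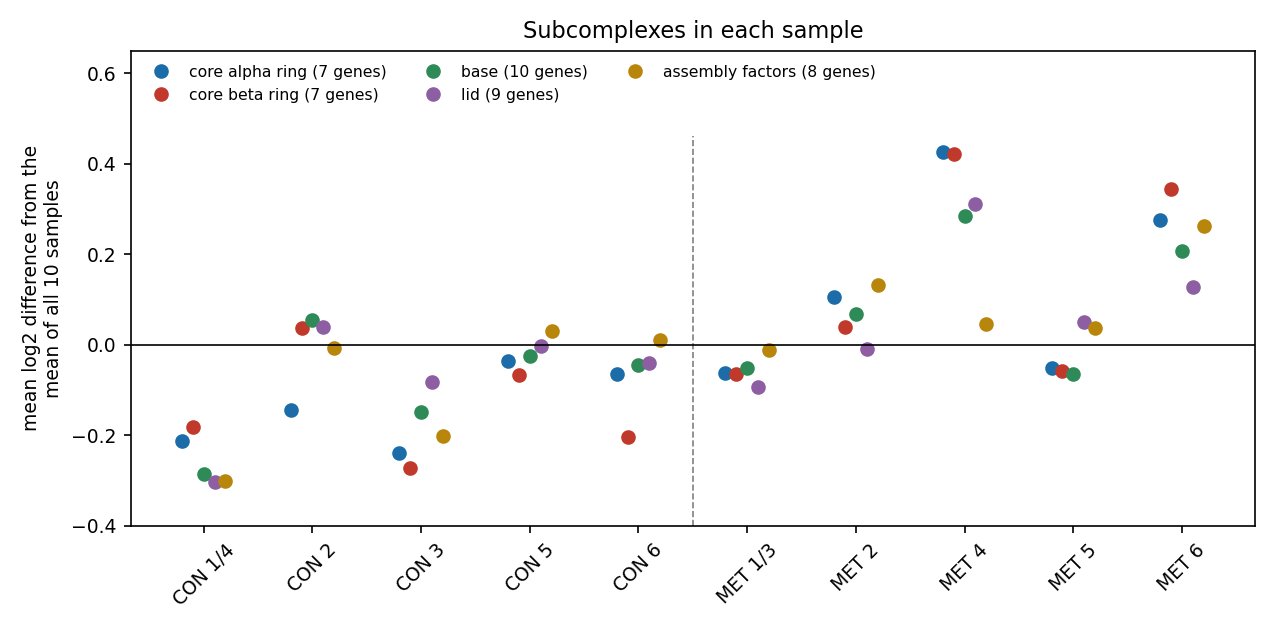
Mean log2 difference of each subcomplex from its mean over all samples, for each of the 10 samples with CON to the left of the dashed line and MET to the right. MET 4 was highest for the core, base and lid but not for the assembly factors.

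Gene length moved with these results. Across the 13212 genes, which are not independent replicates, the log2 fold change over the 10 samples was correlated with log2 exon length at r = −0.26, and members were short, with a median of 1325 bases against 2807 for all genes. After a smooth trend on length had been removed in each sample, 39 of 46 members had a fitted value above 0 (53.7% of all genes did), the median log2 fold change was 0.12 against 0.024 for all genes. An unadjusted p ≤ 0.05 was then found for 6 members, or 13.0%, against 14.2% of all genes in either direction and 7.64% of all genes higher in MET, so that the count in either direction was near the background. Those 6, all higher in MET, were PSMB2 at 0.38, PSMD4 at 0.33, PSMA4 at 0.29, PSMB4 at 0.24, ADRM1 at 0.25 and PSME3IP1 at 0.42 on the log2 scale. No member was called then, with edgeR over the 12 libraries. The medians were 0.21 in the alpha ring, 0.21 in the beta ring, 0.12 in the base, 0.10 in the lid and 0.081 among the assembly factors. The part of length in the difference between diets was not tested further.

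The 5 interferon-inducible genes are given for comparison. PSMB8, PSMB9 and PSMB10 take the place of constitutive subunits, and PSME1 and PSME2 form a cap of the core. All 5 had a higher fitted value in MET over the 10 samples, and edgeR called 2 of the 5 over the 12 libraries, PSMB10 and PSMB8 (2.09% of all genes were called higher), and none over the 10 samples, where 3 had an unadjusted p ≤ 0.05 and DESeq2 called PSMB10 and PSMB8. PSMB10, which takes the place of PSMB7, had 28.4, 19.4, 22.6, 22.1 and 24.7 CPM in CON and 40.7, 45.3, 36.7, 29.8 and 33.5 CPM in MET calves. All MET samples were above all CON samples, and the log2 fold change was 0.64 (SE 0.13, adjusted p = 0.0452) over the 12 libraries and 0.66 (SE 0.14, adjusted p = 0.156) over the 10 samples. PSMB8, which takes the place of PSMB5, had 42.7, 28.5, 27.8, 35.3 and 41.7 CPM in CON and 67.7, 49.6, 64.2, 49.1 and 39.2 CPM in MET calves. MET 6 lay within the CON range and the other MET samples above it, with a log2 fold change of 0.63 (SE 0.16, adjusted p = 0.0766) over the 12 libraries and 0.61 (SE 0.18, adjusted p = 0.180) over the 10 samples. Its adjusted p of edgeR became 0.117 without CON 1, 0.102 without CON 2, 0.123 without CON 3, 0.131 without CON 4, 0.105 without CON 5, 0.122 without MET 1, 0.115 without MET 3 and 0.117 without MET 4. PSMB8 was not called over the 12 libraries with library size scaling or after removal of the length trend, and neither gene was with the replicate number as a block, alone or with the length trend removed. Of the genes that were not called, PSMB9 had a log2 fold change of 0.34 (SE 0.26, adjusted p = 0.534) over the 10 samples. PSME1 and PSME2, the subunits of an activator cap, had 0.27 (SE 0.18, adjusted p = 0.459) and 0.35 (SE 0.15, adjusted p = 0.290). After removal of the length trend PSMB9 had 0.22, PSME1 0.15 and PSME2 0.19 over the 10 samples. With 1 sample left out, PSMB9 became 0.23 without MET 4 and PSME1 became 0.18 without MET 1/3. The difference in response between an inducible subunit and its constitutive counterpart was not tested.

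Of 36 other genes of the ubiquitin-proteasome pathway, 17 (47.2%, against 49.6% of all genes) had a fitted value above 0 and 19 below over the 10 samples, with a median log2 fold change of −0.0098. By subgroup, 3 of 6 ubiquitin and E1 genes (median −0.062) and 7 of 16 proteasome-bound or shuttle factors (−0.0098) were above 0. So were 6 of 7 segregase and secretory protein disposal genes (0.095) and 1 of 7 genes that control proteasome genes (−0.14). After removal of the length trend the medians of the latter subgroups were 0.16 and −0.067, and subgroups were not tested. Over the 12 libraries 1 of the 36 (2.78%, against 2.09% of all genes) was higher and 0 were lower at FDR ≤ 0.10 with edgeR's quasi-likelihood test. At unadjusted p ≤ 0.05, 1 was higher (2.78%, against 10.2% of all genes). At the same limit 3 (ZFAND5, NFE2L2 and DDI2, named after their values were seen) were lower (8.33%, against 10.4%). DESeq2 called 3 in all (8.33%, against 9.95%). The share higher at unadjusted p ≤ 0.05 was below the background, and the others were near it. The count of 1 at FDR ≤ 0.10 became 0 without CON 1, 3, 4, 5 or 6 or without MET 1, 3, 4 or 6, and 2 without CON 2. NFE2L1, whose product activates proteasome genes when the particle is inhibited, had a log2 fold change of −0.17 (SE 0.19, adjusted p = 0.693) over the 10 samples and −0.060 after removal of the length trend. NFE2L1 over the 12 libraries had −0.15, with −0.23 to −0.080 when each library was left out. NFE2L2, a related factor of the oxidative stress response, had 124, 97.8, 98.2, 95.6 and 106 CPM in CON and 81.5, 89.8, 82.1, 87.7 and 91.2 CPM in MET calves, with all MET samples below all CON samples. Its log2 fold change was −0.33 (SE 0.097, adjusted p = 0.101) over the 12 libraries and −0.27 (SE 0.11, adjusted p = 0.255) over the 10 samples. After removal of the length trend NFE2L2 had −0.19 over the 10 samples (adjusted p = 0.440 in edgeR). Of the 36 genes, 1 had all MET samples below all CON samples and 1 all above, against 1.77% and 1.94% of all genes.

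By position on the assembly UMD 3.1.1, the 48 genes lay on 20 chromosomes, with 8 on chromosome 19, 5 on chromosome 10 and 4 on each of chromosomes 3 and 18. The 4 genes of chromosome 3, PSMA5, PSMB4, PSMB2 and PSMD4, were 4 of the 5 members with all MET samples above all CON samples, of which PSMA5 and PSMB4 overlapped when libraries were taken singly, and PSMB4 and PSMD4 lay close together at 19412241 to 19414986 and 19598421 to 19607568. These were grouped after their values were seen, and position was not tested. No member shared exon bases with another gene on the same strand, and PSMD6 and PSMC3IP shared some with genes on the opposite strand, which the stranded counting kept apart.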

How the data were processed

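Liver RNA of 12 calves was measured by stranded RNA sequencing. Per the file headers and the labels, the authors trimmed reads with Trimmomatic 0.33, aligned them with STAR 2.5.3a to UMD 3.1.1 and counted reads per gene with featureCounts 1.5.2, and the deposited values are raw counts. Reads with several matches were not counted, and each library held 8277789 to 10397604 counted reads, which sets the counting error of low genes.

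Gene IDs were matched to RefSeq symbols (table of assembly ARS-UCD 2.0, used for names alone), and 25105 of 30336 had one. Counts were fitted in R 4.3.3 with the quasi-likelihood test of edgeR 4.0.16 after TMM scaling, over genes that passed its filter (minimum count 10, minimum total 15), and p-values were adjusted over all 13212 genes with a threshold of 0.10. The 12 libraries were fitted first, and then 10 samples with the reads of CON 1 and 4 and of MET 1 and 3 summed. Sample values are CPM, averaged over such a pair. SE was derived from the log2 fold change and its F statistic. The p-values over the 10 samples measure the spread between samples, whereas those over the 12 libraries count each near-identical pair as 2 calves and can be too small. The fitting code was tested on simulated data.

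Members given in every sample were those called over the 12 libraries, those without overlap of the diets, the 3 peptidase subunits, the highest and lowest per kb of each subcomplex, and those lower at unadjusted p ≤ 0.05. Other genes named with a value show a range or were chosen after their values were seen. Members and lists were chosen with earlier results of these data known. Alternatives were DESeq2 1.42.0, voom of limma 3.58.1, other size factors, no filter, robust estimation, removal of a loess trend on log2 length (span 0.5), 1 library of each near-identical pair, the replicate number as a block and each library left out. Figures were drawn with matplotlib 3.10.9 in Python 3.11.15. Promoter motifs and protein identity between members were planned and are not analysed here. Values of some single genes of the ubiquitin-proteasome list are not reported here.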

Additional observations from a re-analysis of the deposited data

Results flagged for a closer look

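In 6 of 92 groups of 5 samples (46 members in each diet), 1 sample lay far from the others of its diet, and chance flags about 1 in 20 groups. The deubiquitinase PSMD14 was at 21.4 CPM in CON 1/4 against 34.9 to 37.3 CPM in the other samples of that diet. The lid subunit PSMD6 was at 29.6 CPM in CON 1/4 against 47.6 to 53.2 CPM in the other samples of that diet. PSMD3, a scaffold subunit of the lid, was at 99.0 CPM in CON 5 against 87.4 to 89.5 CPM in the other samples of that diet, and at 126 CPM in MET 4 against 94.1 to 102 CPM in the other samples of that diet. PSMG3, an alpha ring chaperone, was at 11.9 CPM in CON 2 against 8.61 to 9.39 CPM in the other samples of that diet. PSMC3IP, a member by name alone, was at 2.40 CPM in CON 3 against 1.63 to 1.76 CPM in the other samples of that diet.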

How the results depend on the processing

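The median log2 fold change of the members stayed between 0.12 and 0.23 under all alternatives run, and between 0.16 and 0.23 with each library left out. The count of 2 members called over the 12 libraries became 0 with the pairs summed, with 1 library of each pair kept (either choice), with the length trend removed, with library size scaling, with no filter, with the replicate number as a block and with block and length trend together. It became 11 with DESeq2, and 0 to 3 with each library left out. The 13 members at unadjusted p ≤ 0.05 became 6 with the length trend removed, 5 with block and length trend together over the 12 libraries, and 6 to 15 with each sample left out. The 6 members without overlap of the diets became 2 with the length trend removed, 1 with library size scaling, 4 over the 12 libraries and 4 with CON 4 and MET 3 kept of the pairs. With each sample left out the count was 6 to 9, but leaving out a sample can only keep or add such members. That range therefore does not measure how stable the count is. The other tests, the filter, robust estimation and the block give no such count. The called gene of the ubiquitin-proteasome list became 0 in the same 8 settings as the members, 3 with DESeq2, 2 with upper quartile factors and 0 to 2 with each library left out.

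Of 475 values of the 19 members given in every sample under 25 alternatives each, 416 kept direction and side of the threshold, 36 lost the call, 4 gained it and 19 turned sign. PSMB7 had a log2 fold change of −0.12 with the length trend removed, −0.0044 with the block, −0.13 with both and −0.0032 with voom, and −0.083 to 0.098 with each library left out. PSMD1 had 0.028 with the length trend removed, 0.017 with library size scaling and 0.027 with block and length trend, and −0.064 to 0.035 with each library left out. PSMD10 had −0.16 to 0.0090 with each library left out, and SEM1 had −0.036 with the length trend removed and −0.031 with block and length trend. The cause of these differences was not tested.

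Deviations of CON and MET libraries with the same number correlated at −0.20 to 0.16 over the genes, above 0.1 in 1 of 6 pairs, and 1 of 12 libraries correlated best with its own number, so the numbers pair nothing. With the block, 6 genes in all were called, and 3 with block and length trend. Depth limits SEM1, PSMD10 and PSMC3IP most, and SEM1 rested on 28 to 51 reads per library.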
